A study of Mus musculus with 37 samples.

Results

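The 7 genes described here encode the main enzymes with which colon tissue makes nitric oxide, superoxide and hydrogen peroxide, partner proteins of these enzymes, and an enzyme that removes peroxide. They are Nos2, Duox2, Duoxa2, Nox1, Noxo1, Cybb and Gpx2, each read from the array feature (transcript cluster) annotated to its symbol alone. Each symbol had a single such cluster, so all 7 were measured, out of 19938 genes, and all 7 entered the tests with no filter on low signal. The data are 37 Affymetrix Mouse Gene 1.0 ST arrays, each from the colon RNA of a different mouse. Wild-type mice (WT) were C57BL/6J. Knockout mice (KO) were labelled B6.129S4-Timp1tm1Pds/J and carry a targeted germline allele in every cell, which disrupts Timp1, an inhibitor of matrix metalloproteinases. Mice received oral dextran sodium sulphate (DSS), a polysaccharide that injures the gut lining and brings on colitis, in an acute or a chronic protocol, each with control mice of both genotypes. The acute phase held 3 WT controls, 5 WT mice on DSS, 3 KO controls and 6 KO mice on DSS, and the 4 chronic groups had 5 mice apiece. Doses, days, ages and sexes are not given in the sources used here. Values are log2 signals as the authors deposited them, normalized by the robust multi-array average (RMA), so that 1 unit is a doubling. Differences are log2 differences with the standard error (SE) of a limma model over all genes and arrays, and a gene passed at a Benjamini-Hochberg adjusted p under 0.05. Signals of different genes are not compared with each other, because each probe set has its own response.

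Nitric oxide synthase 2 (Nos2) makes nitric oxide from arginine in activated macrophages and in inflamed epithelium, where it is set mainly by transcription. The NADPH oxidases pass electrons from NADPH to oxygen. Nox1 is the superoxide-producing oxidase of the colonic epithelium and works with the organizer subunit Noxo1 and the activator subunit Noxa1. Duox2 releases hydrogen peroxide at the luminal surface of epithelial cells and needs its maturation factor Duoxa2 to leave the endoplasmic reticulum. Cybb is the catalytic subunit of the oxidase of neutrophils and macrophages. Gpx2 is the glutathione peroxidase of the gut epithelium and reduces peroxides. In RNA of whole colon, fewer cells of a type and less RNA per cell cannot be told apart.

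Several features of the arrays touch the results below. Timp1 followed the labels under acute DSS, with signals of 9.47 to 12.19 in WT acute DSS and 7.10 to 8.68 in KO acute DSS. Under chronic DSS it stood at 7.20 to 9.27 in WT (mean 8.41) and at 6.83 to 7.30 in KO (mean 7.03). WT chronic DSS replicate 5, at 7.20, lay inside the KO range, and the other WT arrays stood at 7.93 to 9.27. In chronic controls it did not separate the genotypes, with WT at 6.99 to 7.28 and KO at 6.84 to 7.46. The animal numbers in the sample titles fall into 4 series, treated as possible batches. All WT acute mice and KO acute DSS replicates 1 to 3 belong to series 1, and the KO acute controls with KO acute DSS replicates 4 to 6 belong to series 2. WT chronic DSS and WT chronic control replicates 1 to 3 form series 3, and all KO chronic mice with WT chronic control replicates 4 and 5 form series 4. The mean log2 signal of 9 epithelial genes was 12.52 to 12.54 in WT acute controls, 12.40 to 12.45 in WT acute DSS replicates 2, 4 and 5, but 11.74 in replicate 1 and 10.92 in replicate 3. In KO acute DSS it was 12.23 to 12.60, and in the 4 chronic groups it lay between 12.46 and 12.66. Xist, the RNA of the inactive X chromosome, stood at 5.82 in KO acute control replicate 2 and 5.81 in KO acute DSS replicate 4, against at least 11.76 in all other arrays. Of the 84 values that the 7 genes gave in 12 comparisons, 14 passed.

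**Figure D1:**
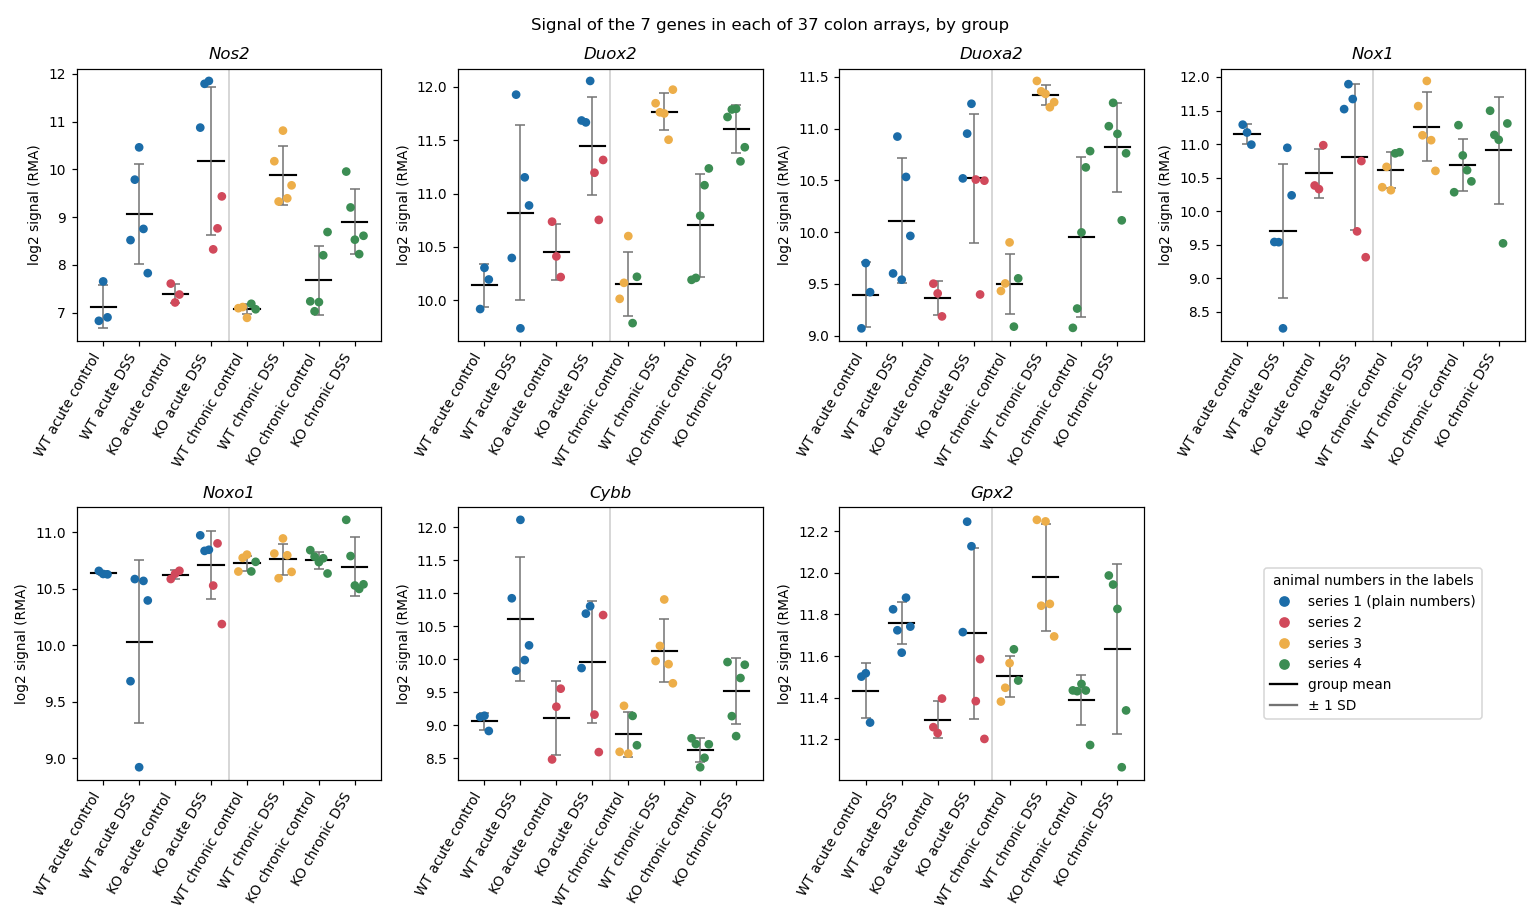
Log2 signal (vertical axis) of each gene in every array, by group (horizontal axis), with points coloured by the series of the animal's number, black lines for group means and grey bars for ± 1 SD. Nos2 is above all WT chronic controls in all 5 WT chronic DSS arrays, and in KO acute DSS the 3 arrays of series 1 lie above the 3 of series 2.

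The first question was how colitis changed the genes within each genotype and phase. WT chronic DSS gave the clearest picture. Nos2, Duox2, Duoxa2, Cybb and Gpx2 rose, 5 of 7 genes against 5.79% of all genes that rose, and in all 5 every DSS array lay above every control array, which held for 6.23% of all genes. Nox1 (0.64 ± 0.43, adjusted p = 0.363) and Noxo1 (0.04 ± 0.19, adjusted p = 0.942) did not pass. Of 4 measured genes whose level marks the distal colon 3 fell in the same comparison, with a median of -1.97 (8.58% of all genes fell). The part of position along the colon in these results was not tested. In WT acute DSS 2 of 7 genes rose, Nos2 and Cybb, and 2 fell, the epithelial oxidase Nox1 and its organizer Noxo1. Over all genes 19.4% rose and 21.8% fell, so counts this small were near the shares of all genes. Every DSS array lay above every control for Nos2, Cybb and Gpx2 (17.7% of all genes) and below for Nox1 and Noxo1 (21.4%). Among KO mice 1 gene rose in each phase, Nos2 in the acute phase (0.266% of all genes rose) and Duox2 in the chronic phase (2.47% rose). Groups were apart for Nos2 and Duox2 in KO acute mice (2.79% of all genes) and for Duox2 and Cybb in KO chronic mice (2.82%).

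**Figure D2:**
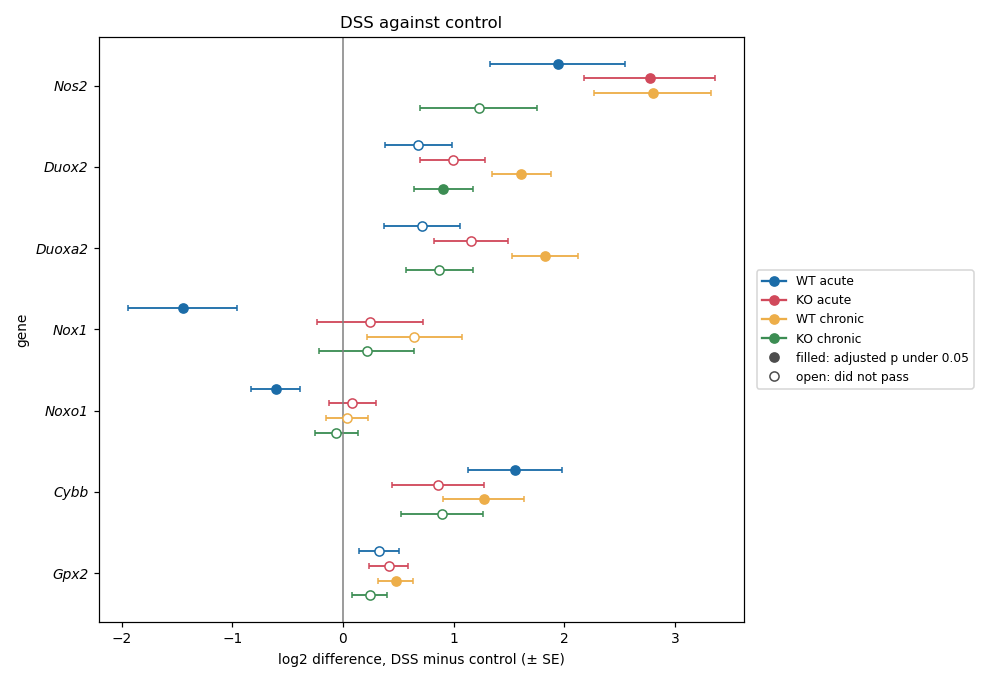
Log2 difference of DSS minus control (horizontal axis, ± SE) for each gene (vertical axis) in the 4 pairs of groups; filled points passed at an adjusted p under 0.05. Nox1 in WT acute DSS, at -1.45, is the difference farthest below 0, and Nos2 in WT chronic DSS, at 2.80, the farthest above.

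Nos2 had the widest range of the 7 genes. Its signal was 7.10, 7.12, 6.89, 7.19 and 7.07 in the 5 WT chronic controls and 10.17, 9.33, 10.81, 9.39 and 9.67 in the 5 WT chronic DSS arrays. The groups did not overlap, and the lowest DSS array stood well above the highest control. The rise was 2.80 ± 0.53 (6.96-fold, limma adjusted p = 0.000416), and within series 3 alone it was 2.84 ± 0.30 (adjusted p = 0.000503). In the acute phase the WT controls gave 6.83, 7.66 and 6.90, and WT DSS gave 8.52, 9.78, 10.46, 8.75 and 7.83. All 5 DSS arrays were above the 3 controls, replicate 5 by little, and the rise was 1.94 ± 0.61 (3.83-fold, adjusted p = 0.0112). With array weights it was 1.18 ± 0.45 (adjusted p = 0.031). Without WT acute control replicate 3 the adjusted p was 0.0506.

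In KO acute mice the controls gave Nos2 signals of 7.61, 7.22 and 7.38, and the 6 DSS arrays ran from 8.33 over a median of 10.15 to 11.85. All 6 lay above the controls, and the difference was 2.77 ± 0.59 (6.82-fold, adjusted p = 0.0156). The DSS arrays fell into 2 sets along the animal series, 11.50 ± 0.55 (SD, n = 3) in series 1 and 8.84 ± 0.56 (SD, n = 3) in series 2. The controls were all of series 2, and against that series alone the difference was 1.44 ± 0.27, which did not pass (adjusted p = 0.541). With series in the model it was 1.44 ± 0.51 (adjusted p = 0.213), and with array weights 3.25 ± 0.49 (adjusted p = 7.74e-05). The neutrophil gene means of the 2 sets overlapped, at 6.97, 8.89 and 7.75 in series 1 and 7.27, 6.22 and 8.56 in series 2. The means of 6 smooth muscle genes did not overlap, at 12.21, 11.86 and 11.93 in series 1 and 12.59, 12.26 and 12.35 in series 2. Those of 6 colonocyte genes were 11.87, 11.32 and 11.69 in series 1 and 12.37, 12.45 and 11.82 in series 2, and those of 4 distal colon genes 8.77, 9.31 and 8.84 against 7.38, 8.86 and 7.42. The part of these markers in the Nos2 result was not tested. Leaving out any 1 of the 3 KO acute controls also ended the call (adjusted p = 0.0733 to 0.101). In KO chronic mice the controls gave 7.24, 7.03, 7.22, 8.20 and 8.69, and DSS gave 9.95, 9.20, 8.53, 8.23 and 8.61. Control replicate 5 lay inside the range of the DSS arrays and replicate 4 just below it, and the difference of 1.23 ± 0.53 did not pass (adjusted p = 0.149). With animal series in the model, which left this difference as it was, its adjusted p was 0.0429.

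Duox2 and Duoxa2 lie side by side in the mouse genome and are read in opposite directions, with their annotated starts 673 bases apart. Their promoters are shown because the pair moved together in these arrays. Each sequence holds 250 bases before and 50 bases after the start, from RefSeq. Capitals mark a TATA box (TATAAA) or the AP-1 letters TGANTCA, a loose form with any base at N, found on either strand.
Duox2 promoter, GRCm38.p6, chr2:122298178-122298477, minus strand: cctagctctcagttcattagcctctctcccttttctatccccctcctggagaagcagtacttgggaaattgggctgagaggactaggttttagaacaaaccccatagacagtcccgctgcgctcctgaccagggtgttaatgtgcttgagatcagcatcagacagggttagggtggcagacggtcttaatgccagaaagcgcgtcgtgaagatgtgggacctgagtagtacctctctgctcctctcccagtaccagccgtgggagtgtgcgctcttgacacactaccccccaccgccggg
Duoxa2 promoter, GRCm38.p6, chr2:122298650-122298949, plus strand: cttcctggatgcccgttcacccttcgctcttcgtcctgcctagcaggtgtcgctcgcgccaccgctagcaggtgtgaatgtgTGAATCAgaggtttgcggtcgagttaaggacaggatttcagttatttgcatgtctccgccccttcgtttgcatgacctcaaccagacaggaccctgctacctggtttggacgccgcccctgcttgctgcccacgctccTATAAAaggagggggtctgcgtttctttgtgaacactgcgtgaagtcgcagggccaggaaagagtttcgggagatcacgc
The Duoxa2 window held a TATA box from -30 to -25 bases, counting the start as 0, and the AP-1 letters, as TGAATCA, from -168 to -162 bases. Of 32851 promoters of this length 13.6% held TATAAA and 7.81% TGANTCA. The Duox2 window held neither, and neither window held the kappaB letters, GGG and CC with any 5 bases between them (50.8% of promoters), the STAT letters TTCNNNGAA (8.3%) or the antioxidant response letters TGACNNNGC (12.4%). RefSeq's table gave promoters for 6 of the 7 genes, all but Nos2.

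Duox2, the luminal peroxide source, stood at 10.01, 10.16, 10.60, 9.78 and 10.22 in WT chronic controls and at 11.85, 11.76, 11.75, 11.50 and 11.97 in WT chronic DSS. The DSS arrays lay close together and above every control. The rise was 1.61 ± 0.26 (3.06-fold, limma adjusted p = 8.97e-05). Duoxa2, its maturation factor, stood at 9.43, 9.50, 9.90, 9.09 and 9.55 in the same controls and at 11.46, 11.36, 11.34, 11.21 and 11.26 under DSS. It rose by 1.83 ± 0.30 (3.55-fold, adjusted p = 8.92e-05). Within series 3 the rises were 1.51 ± 0.14 for Duox2 (adjusted p = 0.000281) and 1.71 ± 0.11 for Duoxa2 (adjusted p = 3.43e-05).

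In KO chronic mice Duox2 was 10.19, 10.21, 10.79, 11.08 and 11.24 in controls and 11.72, 11.79, 11.79, 11.30 and 11.43 under DSS. No DSS array overlapped the controls, though control replicates 4 and 5 came close, and Duox2 rose by 0.91 ± 0.26 (1.88-fold, adjusted p = 0.0304). That call ended without any 1 of 5 arrays (adjusted p = 0.0519 to 0.0938), which were DSS replicates 2 and 3 and control replicates 1 to 3. Duoxa2 was 9.07, 9.26, 10.00, 10.63 and 10.78 in these controls and 11.02, 11.25, 10.95, 10.11 and 10.76 under DSS. Its groups overlapped, and the difference of 0.87 ± 0.30 did not pass (adjusted p = 0.0667). It passed without KO chronic control replicate 5 (1.08, adjusted p = 0.0266), control replicate 4 (1.04, adjusted p = 0.0438) or DSS replicate 4 (1.05, adjusted p = 0.0443), and with animal series in the model (adjusted p = 0.0487). Control replicates 4 and 5 were thus the 2 highest of their group for Nos2, Duox2 and Duoxa2 alike. The neutrophil gene means of the 5 controls were 6.21, 5.96, 6.12, 6.22 and 6.15 in replicate order.

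In the acute phase neither gene passed. WT acute controls gave Duox2 signals of 9.92, 10.30 and 10.19, and WT acute DSS gave 10.40, 11.93, 9.73, 11.15 and 10.89. In 4 of 5 DSS arrays the signal was above all controls, and in replicate 3, the array lowest in epithelial genes, it was below them. The difference was 0.68 ± 0.31 (adjusted p = 0.0726), and without replicate 3 it was 0.95 (adjusted p = 0.00789). After cyclic loess normalization it was 0.82 (adjusted p = 0.0267), and with array weights 0.82 (adjusted p = 0.0025). For Duoxa2 the WT acute difference was 0.72 ± 0.35 (adjusted p = 0.0971), 0.85 after cyclic loess (adjusted p = 0.0467) and 0.70 with array weights (adjusted p = 0.0381). In KO acute mice the Duox2 difference was 0.99 ± 0.30 (adjusted p = 0.0831), with all 6 DSS arrays above the 3 controls, and the Duoxa2 difference 1.15 ± 0.34 (adjusted p = 0.0764), with 5 of 6 above. Without KO acute DSS replicate 5, the lowest array for both genes, the differences were 1.13 and 1.38 and passed (adjusted p = 0.0313 and 0.0146). With array weights they were 1.06 and 1.28 and passed too (adjusted p = 0.00274 and 0.0041). Against series 2 alone they were 0.63 ± 0.19 and 0.77 ± 0.29 (adjusted p = 0.541 and 0.545).

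The 2 genes also had the most similar pattern. Likeness was measured as the root mean square (RMS) difference between the 8 group means of 2 genes, each centred on its own mean. Of all genes, Duoxa2 was nearest to Duox2 and Duox2 nearest to Duoxa2, at 0.18 log2 units, while their own means spread by 0.61 and 0.67. The next nearest to both was Wfdc18, at 0.21 from each, followed by Prom1 for Duox2 (0.23) and Fer1l4 for Duoxa2 (0.27). Nos2 was farther from the pair in log2 units, at 0.68 from Duox2 and 0.67 from Duoxa2, and its nearest genes were Mfsd2a (0.37), Trim15 (0.51) and Dhrs9 (0.51) against its own spread of 1.17. This measure is not scaled to the spread of a gene. Counted from Nos2, Duoxa2 and Duox2 still ranked 13 and 14 of all genes in nearness. Counted from Duox2 and Duoxa2, Nos2 ranked 15392 and 8495.

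Nox1 and Cybb encode related catalytic subunits, 1 of the colonic epithelium and 1 of phagocytes, and in WT acute DSS they moved in opposite directions. Their promoters are shown to set the pair side by side, with the motifs named above in capitals.
Nox1 promoter, GRCm38.p6, chrX:134111805-134112104, minus strand: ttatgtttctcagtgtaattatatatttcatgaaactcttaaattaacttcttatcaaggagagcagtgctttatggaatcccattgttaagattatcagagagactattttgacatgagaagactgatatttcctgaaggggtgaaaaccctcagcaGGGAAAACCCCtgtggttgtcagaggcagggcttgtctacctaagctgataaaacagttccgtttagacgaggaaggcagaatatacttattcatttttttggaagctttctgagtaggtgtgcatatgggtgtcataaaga
Cybb promoter, GRCm38.p6, chrX:9469275-9469574, minus strand: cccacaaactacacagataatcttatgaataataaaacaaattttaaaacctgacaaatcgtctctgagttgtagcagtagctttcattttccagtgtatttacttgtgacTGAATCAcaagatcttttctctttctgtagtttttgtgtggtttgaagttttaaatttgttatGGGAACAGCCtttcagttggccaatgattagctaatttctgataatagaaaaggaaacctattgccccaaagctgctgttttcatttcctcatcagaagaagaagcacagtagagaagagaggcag
The Nox1 window held overlapping kappaB letters on both strands between -92 and -82 bases. The Cybb window held kappaB letters from -76 to -67 bases and the AP-1 letters, as TGAATCA, from -139 to -133 bases. Neither held a TATA box by these letters. With kappaB letters in 50.8% of promoters, their presence does not set these 2 apart.

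Nox1 stood at 11.29, 11.17 and 10.99 in WT acute controls and at 9.54, 9.54, 8.26, 10.94 and 10.24 in WT acute DSS. All 5 DSS arrays lay below the controls, replicate 3 by far and replicate 4 barely. Nox1 fell by 1.45 ± 0.49 on the log2 scale (a 2.73-fold loss, limma adjusted p = 0.0188). Without replicate 3 the difference was -1.09 (adjusted p = 0.0718), and without control replicate 1 or 2 the adjusted p was 0.0551 and 0.0541. With the variance of these 8 arrays alone it was 0.0641. Noxo1 stood at 10.66, 10.63 and 10.63 in the same controls and at 9.68, 10.59, 8.92, 10.57 and 10.40 under DSS. It fell by 0.61 ± 0.22 (a 1.52-fold loss, adjusted p = 0.0282), and most of this lay in replicates 1 and 3. Without replicate 3 its difference was -0.33 (adjusted p = 0.115), without replicate 1 -0.52 (adjusted p = 0.0744), and without any 1 of the 3 controls the call ended too (adjusted p = 0.0649 to 0.0734). Cyclic loess (-0.48, adjusted p = 0.0729), array weights (-0.28, adjusted p = 0.0591) and the variance of these 8 arrays alone (adjusted p = 0.235) ended it as well.

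Epithelial genes moved with this fall. Of 9 epithelial genes 7 fell in WT acute DSS and 0 rose, with a median of -0.56, and of 6 colonocyte genes 5 fell, with a median of -1.93. Over all genes 21.8% fell, and the median was 0.01. The arrays lowest in Noxo1, replicates 1 and 3, were those lowest in epithelial signal. Nox1 was at 9.54 in replicate 1 and also in replicate 2, whose epithelial signal of 12.45 was close to that of controls. The distal colon genes were lower too, at 9.03 to 9.41 in WT acute controls and 7.49 to 8.14 in WT acute DSS, with the lowest value in replicate 2. The colonocyte mean of replicate 2 was 11.93, where the controls lay between 12.94 and 12.98, but it was the highest of the 5 DSS arrays. Replicate 3, the array lowest in Nox1, had the highest distal mean of the DSS arrays, 8.14. Replicate 4, with Nox1 at 10.94, had a distal mean of 7.81. The part of these markers in the Nox1 and Noxo1 results was not tested. Noxa1, the activator of the same complex, fell too, by 0.96 ± 0.26 (adjusted p = 0.00413). In KO acute DSS Nox1 ran from 9.32 to 11.89 around a control range of 10.33 to 10.98, and its difference was 0.24 ± 0.48 (95% interval -0.73 to 1.21, adjusted p = 0.843). The 3 arrays of series 1 stood at 11.69 ± 0.19 (SD) and the 3 of series 2 at 9.92 ± 0.74 (SD), so that within series 2 the difference was -0.64 ± 0.36 (adjusted p = 0.627). Noxo1 differed by 0.09 ± 0.22 in KO acute DSS (adjusted p = 0.885) and by -0.06 ± 0.19 in KO chronic DSS (adjusted p = 0.89), and its signals were confined to 10.50 to 11.11 in the 4 chronic groups.

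**Figure D3:**
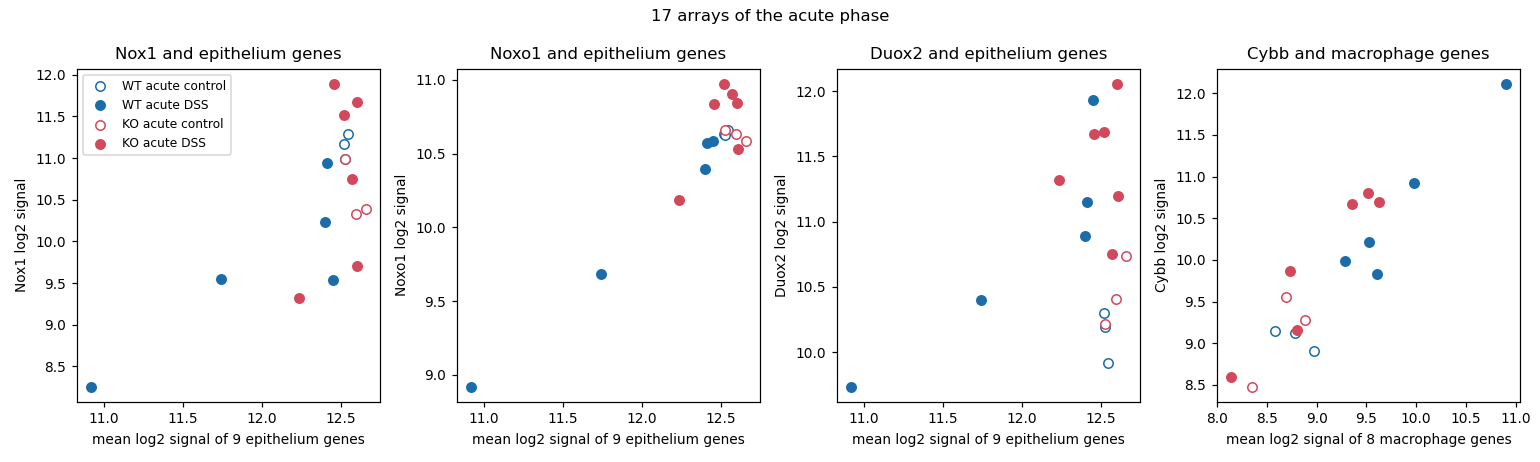
Log2 signal of Nox1, Noxo1, Duox2 and Cybb (vertical axes) in the 17 arrays of the acute phase against the mean log2 signal of 9 epithelial or 8 macrophage genes (horizontal axes); open points are controls and filled points DSS, blue WT and red KO. The WT acute DSS arrays at epithelial means of 11.74 and 10.92 hold the 2 lowest Noxo1 signals, and the array with the highest macrophage mean, 10.91, holds the highest Cybb signal, 12.11.

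Cybb, the phagocyte subunit, stood at 9.12, 9.14 and 8.91 in WT acute controls and at 10.92, 9.83, 12.11, 9.99 and 10.21 in WT acute DSS. All DSS arrays were above the controls, and replicate 3, the array lowest in Nox1 and Noxo1, was the highest. Cybb rose by 1.55 ± 0.43 (2.94-fold, limma adjusted p = 0.00425). In the chronic phase the WT controls gave 8.59, 9.29, 8.57, 9.14 and 8.69 and WT DSS 9.97, 10.20, 10.91, 9.92 and 9.63, a rise of 1.27 ± 0.37 (2.41-fold, adjusted p = 0.0186). Without WT chronic DSS replicate 3 its adjusted p was 0.0707. In KO the differences were 0.86 ± 0.41 in the acute phase (adjusted p = 0.295) and 0.89 ± 0.37 in the chronic phase (adjusted p = 0.133). Cybb passed in KO acute mice with array weights (1.28, adjusted p = 0.00517), and in KO chronic mice with array weights (0.96, adjusted p = 0.0146) or the variance of these 10 arrays alone (adjusted p = 0.024). All 5 KO chronic DSS arrays, at 8.83 to 9.96, lay above the 5 controls, at 8.36 to 8.80.

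Phagocyte markers moved with Cybb in WT acute DSS. There 5 of 8 macrophage genes and 8 of 8 neutrophil genes rose, with medians of 0.88 and 3.29, against 19.4% of all genes. The mean macrophage signal was 8.58 to 8.97 in WT acute controls and 9.28 to 10.91 in WT acute DSS, and the mean neutrophil signal was 6.01 to 6.02 and 8.24 to 10.96. In WT chronic DSS 1 macrophage and 6 neutrophil genes rose (5.79% of all genes). In KO acute DSS 0 of 8 macrophage genes did in limma (3 at an unadjusted p under 0.05) and 1 of 8 neutrophil genes (0.266% of all genes). In KO chronic mice the macrophage means overlapped, at 8.38 to 9.21 under DSS and 8.57 to 8.74 in controls, while Cybb did not overlap. Replicate 3 of KO chronic DSS had the macrophage mean of 8.38, below every control, with Cybb at 8.83. The signals are on a log scale with no true zero, so absence of a marker cannot be read from them. The part of phagocyte number in the Cybb result was not tested. The genes nearest to Cybb in pattern were Cd53 (RMS 0.08), Arhgdib (0.10) and Srgn (0.12), against its own spread of 0.65.

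Gpx2, the peroxide-removing enzyme, changed little. It stood at 11.38 to 11.63 in WT chronic controls and at 12.25, 11.84, 12.25, 11.85 and 11.69 in WT chronic DSS. All DSS arrays were above the controls, and the rise was 0.48 ± 0.16 (1.39-fold, limma adjusted p = 0.0399). That call ended without any 1 of 6 arrays (adjusted p = 0.0597 to 0.119), which were DSS replicates 1 and 3 and control replicates 1, 2, 3 and 5. It also ended when all clusters were tested (adjusted p = 0.0519). In WT acute DSS its signals of 11.62 to 11.88 were again above the controls at 11.28 to 11.52, with a difference of 0.32 ± 0.18 that did not pass (adjusted p = 0.157). It passed there after cyclic loess (0.45, adjusted p = 0.0348) and with the variance of these 8 arrays alone (adjusted p = 0.0254). In KO the differences were 0.41 ± 0.18 (adjusted p = 0.232) and 0.24 ± 0.16 (adjusted p = 0.369) in the acute and chronic phases. With array weights Gpx2 passed in KO acute mice (0.57, adjusted p = 0.0109). Its nearest genes in pattern were Slc25a45 (RMS 0.07), Ero1b (0.08) and A530040E14Rik (0.08), against a spread of 0.21.

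The response in WT mice was then set against itself across phases. Of the 7 genes 1 passed, against 9.3% of all genes with a higher effect in the chronic phase. The DSS effect on Nox1 was 2.09 ± 0.65 higher in the chronic than in the acute phase (limma adjusted p = 0.0262), being -1.45 in acute and 0.64 in chronic mice. The WT controls differed between the phases too, at 10.99 to 11.29 in acute and 10.31 to 10.88 in chronic mice, without overlap. The call ended without WT acute DSS replicate 3 or any 1 of the 3 WT acute controls (adjusted p = 0.0510 to 0.0591). Noxa1 gave a difference of the same direction, 1.19 ± 0.35 (adjusted p = 0.0182), and Noxo1 one of 0.64 ± 0.29 (adjusted p = 0.126). For Duox2 and Duoxa2 the chronic effect was larger by 0.93 ± 0.40 and 1.11 ± 0.46 (adjusted p = 0.107 and 0.0888). Without WT acute DSS replicate 2 these were 1.21 and 1.32 (adjusted p = 0.0195 and 0.0395), and with the variance of these groups alone Duoxa2 passed (adjusted p = 0.0347). In KO 0 of 7 passed in limma and 0 had an unadjusted p under 0.05 (0.01% of all genes passed). The KO difference for Nos2 was -1.54 ± 0.79 (adjusted p = 0.453), and -0.21 ± 0.64 with animal series in the model. The acute and chronic groups came from different animal series in both genotypes.

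The second question was whether the Timp1 genotype altered these genes. Under acute DSS, Nox1 and Noxo1 were higher in KO than in WT, 2 of 7 genes against 15.8% of all genes that were higher. Nox1 differed by 1.10 ± 0.41 (2.15-fold, limma adjusted p = 0.0383, n = 6 and 5), with 3 of 6 KO arrays above all WT arrays. Noxo1 differed by 0.68 ± 0.18 (1.60-fold, adjusted p = 0.00505), with 4 of 6 above. Noxa1 was higher as well, by 1.08 ± 0.22 (adjusted p = 0.000358). Epithelial genes were higher in KO in the same arrays, 5 of 9 with a median of 0.56, as were the distal colon genes of the 3 KO mice of series 1, at 8.77 to 9.31 against 7.49 to 8.14 in WT. The KO arrays lowest in Nox1, replicates 4 and 6 at 9.70 and 9.32, had distal means of 7.38 and 7.42. The part of both marker lists in the difference was not tested. The Nox1 call ended without any 1 of 7 arrays, KO acute DSS replicates 1, 2, 3 and 5 and WT acute DSS replicates 1 to 3, with an adjusted p of 0.0546 to 0.187. The value without WT acute DSS replicate 3 was 0.74. Without that array Noxo1 differed by 0.40 (adjusted p = 0.0327). When the variance was taken from these 11 arrays alone, neither passed (adjusted p = 0.208 for Nox1 and 0.136 for Noxo1). Duox2, at 0.63 ± 0.25 (adjusted p = 0.0589), passed with the dimmest genes left out (adjusted p = 0.0481), and without WT acute DSS replicate 2 (0.90, adjusted p = 0.00362), WT acute DSS replicate 4 (0.71, adjusted p = 0.0426) or KO acute DSS replicate 5 (0.76, adjusted p = 0.0246).

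Animal series changed this comparison for Nos2. KO and WT mice of series 1 were compared directly, 3 against 5. There Nos2 was higher in KO by 2.43 ± 0.57 (adjusted p = 0.0281), with the 3 KO arrays at 10.87, 11.79 and 11.85 above all 5 WT arrays at 7.83 to 10.46. Over all arrays the difference was 1.10 ± 0.50 and did not pass (adjusted p = 0.0963), and with array weights it was 2.21 ± 0.48 (adjusted p = 0.000755). Without KO acute DSS replicate 4 it was 1.47 and passed (adjusted p = 0.0214). In the same series Nox1 differed by 1.99 ± 0.52 (adjusted p = 0.0379), Noxo1 by 0.85 ± 0.37 (adjusted p = 0.151) and Duox2 by 0.98 ± 0.43 (adjusted p = 0.151). With series in the model for all arrays these differences were the same, with adjusted p values of 0.000155 for Nos2, 0.00048 for Nox1, 0.00366 for Noxo1 and 0.00947 for Duox2. The 3 KO mice of series 1 stood above the 3 of series 2 without overlap in Nos2, Duox2, Duoxa2, Nox1 and Gpx2. Cybb was lower in KO by -0.65 ± 0.35 over all arrays (adjusted p = 0.17) and by -0.16 ± 0.52 within series 1 (adjusted p = 0.864).

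**Figure D4:**
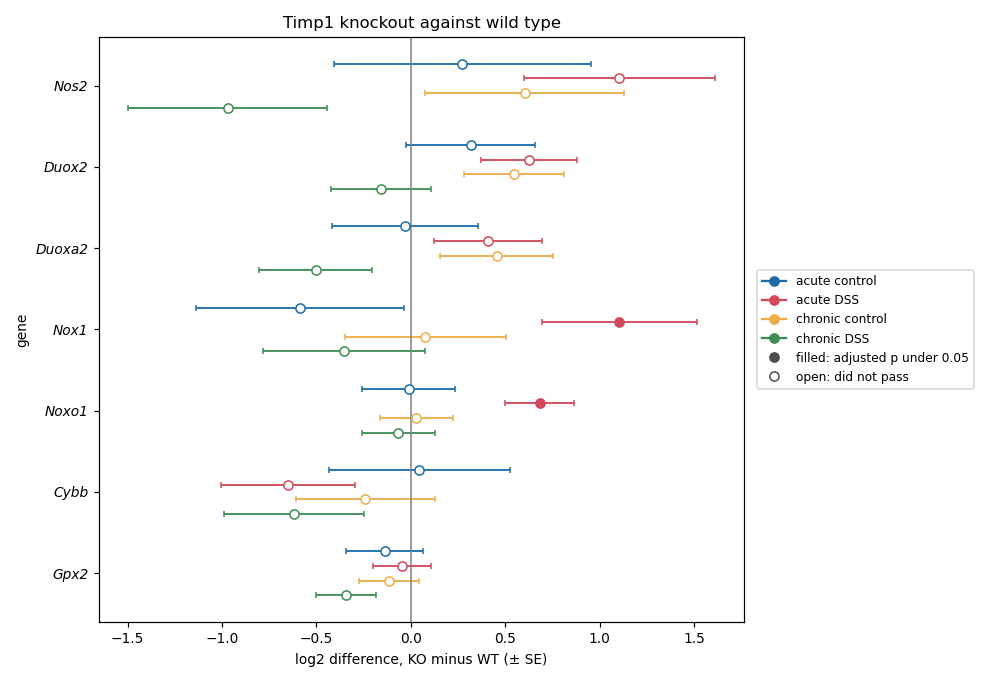
Log2 difference of KO minus WT (horizontal axis, ± SE) for each gene (vertical axis) in controls and under DSS in both phases; filled points passed at an adjusted p under 0.05. The filled points are Nox1 and Noxo1 under acute DSS, at 1.10 and 0.68, and under chronic DSS all 7 differences lie below 0.

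In controls no genotype difference passed. In acute controls 0 of 7 passed in limma and 0 had an unadjusted p under 0.05 (1.12% of all genes passed). Nox1 stood at 10.38, 10.33 and 10.98 in KO and was below all WT controls, with a difference of -0.59 ± 0.55 (adjusted p = 0.731). Groups that did not overlap in this direction were found for 15% of all genes. The acute controls of the genotypes came from different series, and with series in the model Nos2 differed by 2.93 ± 0.72 (adjusted p = 0.0299), where the main value was 0.27 ± 0.68 (adjusted p = 0.926). That series term rests on the 6 KO acute DSS mice. In chronic controls 0 of 7 passed in limma and 1, Duox2, had an unadjusted p under 0.05, with a difference of 0.55 ± 0.26 (adjusted p = 0.52; 0.1% of all genes passed).

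Under chronic DSS all 7 differences were below 0, with a median of -0.35, but 0 passed in limma, and 1, Gpx2, had an unadjusted p under 0.05 (2.48% of all genes passed). Gpx2 was at -0.34 ± 0.16 (adjusted p = 0.254), and Nos2 at -0.97 ± 0.53 with a 95% interval of -2.04 to 0.10 (adjusted p = 0.354). Duoxa2 was at -0.50 ± 0.30 (adjusted p = 0.403), and 4 of 5 KO arrays lay below all WT arrays for Nos2 and for Duoxa2. These genotypes came from series 3 and 4, and with series in the model the Nos2 difference was -1.06 ± 0.69 (adjusted p = 0.772).

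The test of whether the genotypes responded differently to DSS passed for 0 of 7 genes in limma in either phase, while 12.3% of all genes passed in the acute and 0.421% in the chronic phase. In the acute phase 2 genes had an unadjusted p under 0.05, Nox1 (1.69 ± 0.69, adjusted p = 0.0988) and Noxo1 (0.69 ± 0.31, adjusted p = 0.134). The Nox1 value was 0.80 ± 0.62 with series in the model (adjusted p = 0.433), and 1.99 without KO acute DSS replicate 6 (adjusted p = 0.0268). With array weights Nox1 (1.66, adjusted p = 0.0147) and Nos2 (2.07, adjusted p = 0.0208) passed, while the Nos2 value was 0.83 ± 0.85 without weights and -0.50 ± 0.68 with series in the model. Noxa1 passed in this test, at 1.11 ± 0.37 (adjusted p = 0.0435), but was not examined in these other settings. In the chronic phase 2 genes had an unadjusted p under 0.05, Nos2 (-1.57 ± 0.75, adjusted p = 0.317) and Duoxa2 (-0.96 ± 0.42, adjusted p = 0.278). The 95% interval of the chronic Nos2 value, -3.09 to -0.05, spans responses from nearly equal to much smaller in KO.

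Group means in order show how little separated neighbours. For Nos2 the order ran from KO acute DSS (10.17 ± 1.54, SD) over WT chronic DSS (9.87 ± 0.62), WT acute DSS (9.07 ± 1.05), KO chronic DSS (8.90 ± 0.69), KO chronic control (7.68 ± 0.73), KO acute control (7.40 ± 0.20) and WT acute control (7.13 ± 0.46) to WT chronic control (7.07 ± 0.11). The 4 DSS groups held the 4 highest places, and the step from the lowest DSS group to the highest control group, 1.23, was wider than the larger SD of the pair. For Duox2 the 4 DSS groups also came first, WT chronic DSS (11.77 ± 0.17), KO chronic DSS (11.61 ± 0.23), KO acute DSS (11.45 ± 0.46) and WT acute DSS (10.82 ± 0.82), followed by KO chronic control (10.70 ± 0.48), KO acute control (10.45 ± 0.26), WT chronic control (10.16 ± 0.30) and WT acute control (10.14 ± 0.20). Duoxa2 had the same first 5 groups, from 11.32 ± 0.10 in WT chronic DSS to 9.95 ± 0.77 in KO chronic control, and its first step, 0.50, exceeded the larger SD. The 3 other control groups lay between 9.36 and 9.50.

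For Cybb the order was WT acute DSS (10.61 ± 0.94), WT chronic DSS (10.13 ± 0.48), KO acute DSS (9.96 ± 0.92) and KO chronic DSS (9.51 ± 0.50), then the controls from 9.10 to 8.62. Gpx2 means ran from 11.98 ± 0.26 in WT chronic DSS to 11.30 ± 0.09 in KO acute control, with the 4 DSS groups again first. Nox1 and Noxo1 did not follow that order. Nox1 was highest in WT chronic DSS (11.26 ± 0.51) and next in WT acute control (11.15 ± 0.15), and lowest in WT acute DSS (9.70 ± 1.00). Noxo1 means lay between 10.63 and 10.76 in 7 groups and at 10.03 ± 0.72 in WT acute DSS, whose arrays did not overlap those of its neighbour in the order. For all other neighbours of all 7 genes the ranges of single arrays overlapped. The nearest genes were Apol7c (RMS 0.16), Atf3 (0.18) and Lrrc66 (0.20) for Nox1 and Fkbp4 (0.04), St14 (0.05) and Slc35c1 (0.06) for Noxo1, against spreads of 0.45 and 0.23.

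The other genes of these pathways were read from fixed lists, in the main model only and not in the other settings. Of 12 partner and related subunits of the oxidases 11 were measured. In WT acute DSS 7 rose and 1 fell, with a median of 0.27, where 19.4% of all genes rose and 21.8% fell. The small GTPase Rac2 of blood cells rose by 1.14 ± 0.39 (limma adjusted p = 0.0187) and Ncf4, a cytosolic subunit of the phagocyte oxidase, by 0.85 ± 0.28 (adjusted p = 0.0172), while Noxa1 was the gene that fell. In WT chronic DSS, where 5.79% of all genes rose, 4 rose and 0 fell, with Rac2 at 1.17 ± 0.34 (adjusted p = 0.0177). The others that rose, named after their values were seen, were Ncf1, Duox1 and Cyba, the membrane partner of Nox1 and Cybb (0.66 ± 0.13, adjusted p = 0.000996). The difference for Hvcn1, a proton channel that supports the phagocyte oxidase, was 0.87 ± 0.40 (adjusted p = 0.146). In KO 0 of 11 passed in limma in either phase, with 3 genes at an unadjusted p under 0.05 in the acute and 1 in the chronic phase, where Rac2 stood at 0.53 ± 0.38 and 0.66 ± 0.34. Under acute DSS 1 was higher in KO than in WT, Noxa1, and 1 was lower, Nox4, an oxidase of kidney and vessel wall (-0.34 ± 0.08, adjusted p = 0.0019). Over all genes 15.8% were higher and 15.2% lower in that comparison.

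Of 16 measured genes of arginine and nitric oxide metabolism, 6 rose and 4 fell in WT acute DSS, with a median of 0.07, and 6 rose and 0 fell in WT chronic DSS, with a median of 0.13. The shares over all genes were the 19.4% and 21.8% given above for acute DSS and 5.79% rising in chronic DSS, so the share that fell in acute DSS was near that of all genes. Arg2 and Arg1, the arginases that compete with Nos2 for arginine, rose by 1.60 ± 0.46 and 1.50 ± 0.26 in acute DSS and by 1.65 ± 0.40 and 1.19 ± 0.22 in chronic DSS. The arginine transporter Slc7a2 rose by 1.33 ± 0.21 in acute DSS. Ddah1, which breaks down an inhibitor of nitric oxide synthases, rose by 2.15 ± 0.26 in chronic DSS (limma adjusted p = 2.11e-06). In KO chronic DSS, where 2.47% of all genes rose, 2 rose. These were Arg2 (1.42 ± 0.40, adjusted p = 0.0235) and Gch1 (0.47 ± 0.15, adjusted p = 0.0418), which starts the synthesis of the cofactor of Nos2. In KO acute DSS 0 of 16 passed in limma (1.12% of all genes passed) and 4 had an unadjusted p under 0.05, with Gch1 at 0.51 ± 0.16 (adjusted p = 0.107). Under acute DSS 3 were higher and 5 lower in KO than in WT, where 15.8% of all genes were higher and 15.2% lower, among the lower Slc7a2 (-0.97 ± 0.17), Arg1 (-0.82 ± 0.21) and Nos1 (-0.78 ± 0.19), the neuronal synthase. In the test of the difference in response to acute DSS these 3 genes were also lower in KO, as were 5.75% of all genes. The values were -1.11 ± 0.29 for Slc7a2 (adjusted p = 0.0133), -1.07 ± 0.36 for Arg1 (adjusted p = 0.0466) and -1.22 ± 0.32 for Nos1 (adjusted p = 0.0145). The 3 genes were not examined in other settings, such as animal series in the model. Under chronic DSS 2 were lower in KO than in WT (1.3% of all genes were), Arg1 (-0.90 ± 0.22, adjusted p = 0.0263) and Slc7a1 (-0.35 ± 0.10, adjusted p = 0.0479).

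Of 25 measured genes of peroxide and glutathione defence 8 rose and 5 fell in WT acute DSS, with a median of 0.01, and 7 rose and 0 fell in WT chronic DSS, with a median of 0.21. Over all genes 19.4% rose and 21.8% fell in acute DSS, near the share of this list that fell, and 5.79% rose in chronic DSS. The cystine transporter Slc7a11 rose by 2.36 ± 0.49 and 2.24 ± 0.43 in the 2 phases, and heme oxygenase Hmox1 by 2.01 ± 0.30 and 0.79 ± 0.26. The secreted peroxidase Gpx3 rose by 1.80 ± 0.32 in acute DSS and the quinone reductase Nqo1 by 1.31 ± 0.28 in chronic DSS. In KO acute DSS 0 of 25 passed in limma and 8 had an unadjusted p under 0.05 (1.12% of all genes passed). In KO chronic DSS 4 rose (2.47% of all genes rose), with the glutathione synthesis subunit Gclm at 0.75 ± 0.14 (limma adjusted p = 0.00152). Under acute DSS 2 were higher and 8 lower in KO than in WT (15.8% and 15.2% of all genes), led by Gpx3 (-1.71 ± 0.26), Slc7a11 (-1.52 ± 0.41) and the extracellular superoxide dismutase Sod3 (-1.47 ± 0.29).

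Of 4 measured heme peroxidases, which use hydrogen peroxide as a substrate, Lpo rose in chronic DSS in both genotypes, by 2.08 ± 0.29 in WT (limma adjusted p = 1.29e-05) and 1.42 ± 0.29 in KO (adjusted p = 0.00337). Its acute differences were 0.73 ± 0.34 and 0.32 ± 0.33 (adjusted p = 0.086 and 0.667). Pxdn, which acts in basement membrane, rose in WT acute DSS by 1.15 ± 0.22 and was lower in KO than in WT under acute DSS by -1.45 ± 0.18 (adjusted p = 1.07e-06). Of 8 measured cytokines and factors known to raise Nos2 or Duox2, 4 rose and 1 fell in WT acute DSS and 5 rose in WT chronic DSS, against 19.4%, 21.8% and 5.79% of all genes. The gene that fell was Irf1. The cytokine Il1b rose by 3.55 ± 0.59 and 2.50 ± 0.51 in these, and by 2.43 ± 0.57 in KO acute DSS (adjusted p = 0.0307), while its KO chronic difference was 0.83 ± 0.51 (adjusted p = 0.342). Under acute DSS Irf1, a factor of the interferon response, was higher in KO by 1.16 ± 0.13 (adjusted p = 2.25e-07) and Ifng by 0.64 ± 0.19 (adjusted p = 0.0102). The comparisons of WT acute DSS with its controls and with KO share the WT acute DSS arrays, so their values are not independent of each other.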

How the data were processed

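The samples were colon RNA of 37 mice on 37 arrays. The authors deposited log2 signals per transcript cluster; the submitters' processing notes name RMA without a version, and the log base, not stated, was read as 2 from the value range (3.03 to 14.96). Array medians were 7.67 to 7.76, and the number of arrays limits the precision. Platform annotation gave 1 symbol to 21789 of 35511 clusters, several to 1621 and none to 12101, which were not used. Where a symbol had several clusters, the brightest on average was kept, which gave 19938 genes.

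limma 3.58.1 in R 4.3.3 fitted the 8 group means over all arrays, with 29 residual and 3.18 prior degrees of freedom, and Benjamini-Hochberg adjustment over all genes. The code was tested on simulated data. Nothing pairs the mice across groups, and replicates are numbered in accession order. Alternatives were another prior, a filter on dim genes, all clusters, cyclic loess, array weights, animal series as covariate, single series, the compared groups alone, and leaving out each array. Leaving out the 2 arrays low in Xist was chosen after seeing the data.

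The genes and lists were chosen with earlier results of these data known. The text names the 7 genes throughout, up to 3 genes per list and comparison with the largest difference, genes of small counts chosen after their values were seen, and the 3 genes nearest in pattern.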

Additional observations from a re-analysis of the deposited data

Results flagged for a closer look

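Nox1 in KO chronic DSS held 1 array far below the others, replicate 4 at 9.52, where the other 4 arrays lay between 11.06 and 11.50. The same array was the lowest of its group in the mean of the distal colon genes (7.09, the others 7.77 to 9.06) and of the colonocyte genes (11.53, the others 12.13 to 12.56). Gpx2 in KO chronic controls held 1 array below the others, replicate 5 at 11.17, where the other 4 lay between 11.43 and 11.47. That control was also among the 2 highest of its group for Nos2, Duox2 and Duoxa2. These were 2 of 42 sets of arrays examined for a sample far from the rest, and chance flags about 5% of such sets.

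The response of Nox1 to DSS differed between the phases in WT mice, with a chronic effect 2.09 higher than the acute effect by the test of that difference in limma (adjusted p = 0.0262). Group means were 11.15 in controls and 9.70 under DSS in the acute phase, and 10.61 and 11.26 in the chronic phase.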

How the results depend on the processing

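No paired analysis was possible because the labels number each animal once and replicate numbers only follow accession order. The count of the 7 genes that passed moved as follows, and settings not named left it as it was. For DSS in WT acute mice it was 4, and 6 with cyclic loess, 5 with array weights and 3 with the compared groups alone. For WT chronic it was 5, and 4 over all clusters. For DSS in KO acute mice it was 1, and 5 with array weights, 0 with animal series as covariate, 0 in series 2 alone and 0 with the compared groups alone. For DSS in KO chronic mice it was 1, and 2, 3 and 2 with array weights, series and compared groups. For KO against WT under acute DSS it was 2, and 1 over all clusters, 4 with series, 0 with the compared groups, and 3 with dim genes left out, with array weights or without the arrays low in Xist. For KO against WT in acute controls it was 0, and 1 with series. With array weights it was 1 in chronic controls, 1 under chronic DSS, 2 and 1 for the acute and chronic difference in response, and 1 for chronic against acute in KO, each 0 otherwise, and 2 for chronic against acute in WT, which gave 1 otherwise and 2 with the compared groups. Leaving out 1 array gave 2 to 4 for WT acute, 0 to 3 for KO acute, 3 to 5 for WT chronic, 0 to 2 for KO chronic, 1 to 3 for KO against WT under acute DSS, 0 to 1 for the acute difference in response and 0 to 3 for chronic against acute in WT.

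Differences that changed sign had not passed, and the cause was not tested. With series as covariate, and in series 2 alone, DSS in KO acute mice gave -0.64 for Nox1 and -0.087 for Noxo1. With series as covariate KO against WT in acute controls gave 0.74 for Duoxa2, 1.19 for Nox1, 0.33 for Noxo1 and 0.50 for Gpx2. Under acute DSS Gpx2 was at 0.27, as in series 1 alone, and under chronic DSS Duox2 at 0.10. In chronic controls Nox1 was at -0.18, as in series 4 alone. The acute difference in response was -0.50 for Nos2, -0.049 for Duox2 and -0.23 for Gpx2, and chronic against acute in KO was 0.27 for Duox2, 0.10 for Duoxa2, 0.86 for Nox1, 0.027 for Noxo1 and 0.15 for Gpx2. With array weights Cybb was at -0.24 in acute controls, 0.15 for the acute difference in response, 0.11 for chronic against acute in WT and -0.32 in KO, and Gpx2 at 0.065 for KO against WT under acute DSS. Cyclic loess gave 0.0061 for Duoxa2 and 0.023 for Noxo1 in acute controls and -0.014 for Gpx2 in the acute difference in response. Without the arrays low in Xist Cybb was at -0.043 in acute controls and -0.21 for chronic against acute in KO, Gpx2 at 0.018 under acute DSS, and Nos2 passed there (1.47, adjusted p = 0.024). Leaving out 1 array spanned 0 for Noxo1 in WT chronic DSS (-0.011 to 0.077), for Duoxa2 (-0.20 to 0.12), Noxo1 (-0.029 to 0.0071) and Cybb (-0.18 to 0.36) in acute controls, for Gpx2 under acute DSS (-0.15 to 0.054) and its acute difference in response (-0.016 to 0.19), for Nox1 in chronic controls (-0.072 to 0.18), for Cybb in chronic against acute in WT (-0.48 to 0.092), and in KO for Duox2 (-0.23 to 0.049), Nox1 (-0.33 to 0.32) and Cybb (-0.24 to 0.35). The number of arrays limits all comparisons. No series of animals held all groups of a difference in response, or both genotypes of acute controls or of chronic DSS.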
